A study of Mus musculus with 6 samples.

Results

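Immediate early genes were compared across 6 cochlear libraries as a set of 10: Fos, Fosb, Jun, Junb, Egr1, Ier2, Ier3, Atf3, Dusp1 and Btg2. The set was chosen by name, with earlier results of these data known. Each symbol matched 1 Ensembl ID among the 55769 features of every library. RNA-seq was run on whole cochleae, the coiled organs of hearing, at postnatal day 3. There were 3 libraries from mice labelled Plscr5-/-, for a gene of the phospholipid scramblase family, and 3 from wild-type mice, with no other allele or agent listed in the genotype field. The extraction text of the labels speaks instead of wild-type and Pou4f3-mutant mice, so the genotype field was used for the groups. Neither the kind of Plscr5 allele, the number of cochleae per library, nor whether each library came from a separate animal is given, so the p-values below measure only the spread between these libraries, which may be technical.

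Immediate early genes are switched on within minutes of a stimulus, by transcription factors that are already in the cell and need no new protein. Growth factors, calcium entry, stress and the cutting or warming of tissue all act on them, mostly through MAP kinases that reach SRF with its ETS partners and CREB at the promoters. Their transcripts are short-lived, so their level reflects the last stretch of time before the RNA was preserved, and for this reason they are often read as a record of tissue handling. No dissection time, date or order of collection is given in the labels, so the part of handling in the values below was not tested. In a whole organ, fewer cells of a type and less RNA per cell cannot be told apart.

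The members are compact genes in the GENCODE M21 annotation. Taking for each gene the transcript with the longest coding sequence, the 10 members had a median genomic span of 3286.5 bases and a median of 2 exons, against 22861 bases and 9 exons for 14193 tested protein-coding genes with such a transcript. Jun, Junb and Ier2 had 1 exon each. The sequence ATTTA, the core of AU-rich elements that mark short-lived mRNAs, occurred in the 3′ untranslated region of 9 of 10 members, all but Ier2, and 3 or more times in 6 of 10. Among the tested protein-coding genes 64.1% had at least 1 copy and 33.6% had 3 or more.

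RefSeq promoter windows of 300 bases (250 before to 50 after the start, GRCm38.p6) were used for 8 members, all but Egr1 and Ier2. Of these, 4 are shown because the results below turn on them: Fos had the largest difference between genotypes, Jun and Dusp1 were high in the same libraries, and Ier3 was low in those libraries. Of 8 motifs searched on both strands, capitals mark TGACG (the half-site of CREB), TGACNTCA (the full site or a variant of it, which can overlap TGACG) and TATAAA, and the window of Ier3 holds none of these. The windows are chr12:85473640-85473939 on the plus strand for Fos, chr4:95052173-95052472 on the minus strand for Jun, chr17:26508423-26508722 on the minus strand for Dusp1 and chr17:35821463-35821762 on the plus strand for Ier3.
Fos: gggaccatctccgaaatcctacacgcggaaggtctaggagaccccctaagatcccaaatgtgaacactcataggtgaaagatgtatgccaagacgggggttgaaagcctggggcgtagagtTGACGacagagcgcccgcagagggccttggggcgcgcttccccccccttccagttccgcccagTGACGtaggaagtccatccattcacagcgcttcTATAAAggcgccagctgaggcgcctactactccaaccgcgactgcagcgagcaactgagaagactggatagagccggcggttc
Jun: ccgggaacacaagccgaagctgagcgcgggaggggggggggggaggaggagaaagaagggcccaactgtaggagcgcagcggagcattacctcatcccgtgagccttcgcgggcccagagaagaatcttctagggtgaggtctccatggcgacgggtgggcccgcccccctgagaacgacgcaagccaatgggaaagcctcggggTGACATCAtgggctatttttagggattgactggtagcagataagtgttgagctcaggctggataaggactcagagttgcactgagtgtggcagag
Dusp1: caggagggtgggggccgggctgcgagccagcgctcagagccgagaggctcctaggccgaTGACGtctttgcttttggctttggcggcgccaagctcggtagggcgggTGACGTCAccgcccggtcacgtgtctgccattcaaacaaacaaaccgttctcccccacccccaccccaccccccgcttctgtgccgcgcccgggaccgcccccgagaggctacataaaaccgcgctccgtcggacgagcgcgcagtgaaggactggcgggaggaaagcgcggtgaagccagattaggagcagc
Ier3: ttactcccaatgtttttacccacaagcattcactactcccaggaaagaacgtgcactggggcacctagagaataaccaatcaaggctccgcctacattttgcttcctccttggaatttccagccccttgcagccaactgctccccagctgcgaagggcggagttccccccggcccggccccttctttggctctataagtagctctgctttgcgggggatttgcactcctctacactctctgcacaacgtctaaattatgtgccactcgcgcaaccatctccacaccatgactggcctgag

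A TGACG half-site was found in 6 of the 8 member windows, all but Jun and Ier3, and in 20.8% of all 32851 windows of this length. TGACNTCA was found in Btg2, Jun and Dusp1, as in 8.83% of all windows, and the copy in Jun began 45 bases before the start. TATAAA was found in Fos and Junb, as in 13.6% of all windows, and in Fos it began 33 bases before the start while in Junb it began at the start itself. TGACGTCA, the full CREB site and the strictest form of TGACNTCA, was found in Btg2 and Dusp1, as in 1.79% of all windows. GGGCGG, an SP1 site, was found in 7 of 8, all but Junb, as in 35.7% of all windows, and CGGAAG, an ETS site, in Junb and Fos, as in 16.9%. The CArG box, the site of SRF, was in 0 of the 8 windows and in 1.63% of all windows, and the AP-1 site TGANTCA in 0 of 8 and 7.81%. The member windows held a median of 23 CpG dinucleotides, against 7 in all windows. A match is only a run of letters, and no match says nothing about sites outside the window. These counts also say nothing about Egr1 and Ier2, for which no window was used.

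Plscr5 itself, checked first, ranged from 3.69 to 5.01 TPM over the knockout libraries and from 9.27 to 14.53 TPM over the wild-type libraries, without overlap (log2 fold change -1.28, limma adjusted p = 0.290). Its transcript was thus lower but still present in the libraries labelled Plscr5-/-, with means of 4.33 and 12.1 TPM, and which part of the gene the allele removes is not given. TPM divides the reads of a transcript by its length and sets the sum of each library to 1000000; it keeps no read depth, so depth is unknown and no counting interval can be given. All 12 hair cell markers and all 10 supporting cell and tectorial membrane markers were above 0 in every library. The third wild-type library stood apart in nerve content: the 12 neuron markers summed to 213 TPM and the 11 Schwann cell markers to 527.5 TPM there, and to between 566.5 and 918.6 TPM and between 1396.3 and 2338.6 TPM in the other libraries. None of these nerve markers was at 0 in any library. Where leaving out wild-type replicate 3 moved a gene's printed log2 fold change by over 1.5 times or turned it, that value is given.

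Of the 10 members 9 had at least 1 TPM in at least 3 libraries and were tested, among 17097 features; the exception was Fosb. Genotype was tested with limma on log2(TPM + 1), with Benjamini-Hochberg adjustment across all tested features and a threshold of 0.05. None of the 9 passed (smallest limma adjusted p = 0.989, that of Fos among others), in a comparison where 2 features, or 0.0117%, passed; neither was an early gene (mt-Nd4l and a feature with no symbol, named after their values were seen). None had an unadjusted p under 0.05 in limma either, against 4.0% of all features. Of the 9, 3 were higher and 6 lower on average in the knockout, and their median log2 fold change was -0.05, beside -0.01 over all tested features. Log2 fold changes are the knockout mean minus the wild-type mean of log2(TPM + 1), which understates the change of low genes, and errors are SD over 3 libraries unless named otherwise.

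The AP-1 subunits come first, since Fos and Jun proteins pair through their leucine zippers to form this transcription factor. Fos, the founding member, was low in all libraries, at 3.91, 2.14 and 3.61 TPM in knockout replicates 1 to 3 and at 2.29, 2.41 and 1.61 TPM in wild-type replicates 1 to 3. The second knockout library lay within the wild-type range, so the groups overlapped. The means were 3.22 ± 0.95 TPM in knockout libraries against 2.10 ± 0.43 TPM in wild-type libraries (log2 fold change 0.43, SE 0.22, 95% confidence interval -0.09 to 0.94, limma unadjusted p = 0.0916). This was the largest difference among the 9 tested members in absolute size and did not pass. Fos was lowest in the third wild-type library, where nerve markers were low, and without that library the log2 fold change was 0.31. Without knockout replicate 2 it was 0.63 (limma unadjusted p = 0.0216, adjusted p = 1).

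Fosb, the paralog of Fos, was under 0.5 TPM everywhere. It stood at 0.46, 0.34 and 0.23 TPM in knockout libraries against 0.28, 0.28 and 0.49 TPM in wild-type libraries. The group means, 0.34 ± 0.12 and 0.35 ± 0.12 TPM, differed by less than the spread within either group. A two-sided exact permutation test of its log2 values gave p = 1, and the smallest p that 3 libraries against 3 can give is 0.1.

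Jun stood at 26.51, 21.71 and 17.94 TPM in knockout libraries against 25.09, 25.68 and 20.73 TPM in wild-type libraries. Both groups had high and low libraries: knockout replicate 1 was the highest of all and knockout replicate 3 the lowest. The means were 22.05 ± 4.30 TPM and 23.8 ± 2.7 TPM (log2 fold change -0.12, SE 0.15). Junb, which can take the place of Jun in AP-1 with weaker activity, stood at 8.92, 8.09 and 7.54 TPM in knockout libraries against 9.85, 7.95 and 10.83 TPM in wild-type libraries. Its highest value was in the third wild-type library and its lowest in the third knockout library, and the groups overlapped (log2 fold change -0.19, SE 0.14, 95% confidence interval -0.52 to 0.14). It was -0.10 without wild-type replicate 3 and -0.31 without wild-type replicate 2. Without wild-type replicate 3, the lowest library for Fos and the highest for Junb, 0 of the 9 members passed as well (smallest limma adjusted p = 0.912, range over all alternatives 0.720 to 1).

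Atf3, a stress-induced member of the same leucine zipper class that forms dimers with Jun proteins, was near 1 TPM. It stood at 0.82, 1.55 and 0.68 TPM in knockout libraries against 1.86, 1.21 and 0.80 TPM in wild-type libraries. Only 3 libraries reached 1 TPM, the minimum for testing, and they came from both genotypes. Its ratio of highest to lowest library, 2.74, was the largest of the 10 members (log2 fold change -0.18, SE 0.26). It was -0.06 when knockout replicate 3 was left out and -0.34 without wild-type replicate 3, and it fell under the minimum for testing when any of the 3 libraries that reached 1 TPM was left out.

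Egr1, a zinc finger factor that ERK signalling induces through SRF, stood at 16.67, 13.92 and 11.14 TPM in knockout libraries against 16.88, 15.00 and 11.26 TPM in wild-type libraries. The values of the genotypes nearly matched, with a high, a middle and a low library in each. The means were 13.9 ± 2.8 and 14.4 ± 2.9 TPM, and the log2 fold change was -0.04 (SE 0.18, 95% confidence interval -0.47 to 0.38).

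The remaining members act as brakes or as less well understood early response proteins. Dusp1, a phosphatase that switches off MAP kinases, stood at 7.58, 6.16 and 5.89 TPM in knockout libraries against 6.74, 8.35 and 4.59 TPM in wild-type libraries. Wild type held both its highest and its lowest library, and the means were 6.54 ± 0.91 and 6.56 ± 1.89 TPM (log2 fold change 0.02, SE 0.21). Btg2, an antiproliferative gene that p53 also induces, stood at 34.86, 32.64 and 33.64 TPM in knockout libraries against 38.08, 34.88 and 37.95 TPM in wild-type libraries. Btg2 was the 1 member whose groups did not overlap, with the first knockout and the second wild-type library 0.02 TPM apart, and 4.74% of all tested features were separated in this direction. No member was separated in the other direction, as 4.60% of all features were. Its log2 fold change was -0.13 (SE 0.08, 95% confidence interval -0.31 to 0.06, limma adjusted p = 0.989), a difference of means from 33.7 ± 1.1 to 37.0 ± 1.8 TPM, and its exact permutation p was 0.1.

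Ier2, a small nuclear protein gene, was the most abundant member, at 41.36, 44.08 and 44.73 TPM in knockout libraries against 41.03, 43.31 and 50.62 TPM in wild-type libraries. The other 5 libraries lay within 4 TPM of each other and the third wild-type library above them. The log2 fold change was -0.05 (SE 0.10) and 0.04 without wild-type replicate 3. Ier3, a regulator of cell survival, stood at 13.89, 19.01 and 21.04 TPM in knockout libraries against 13.11, 16.63 and 18.73 TPM in wild-type libraries. Here the first library of each genotype was the low one (log2 fold change 0.14, SE 0.18). With single libraries left out it ran from 0.0059 without wild-type replicate 1 to 0.31 without knockout replicate 1.

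**Figure D1:**
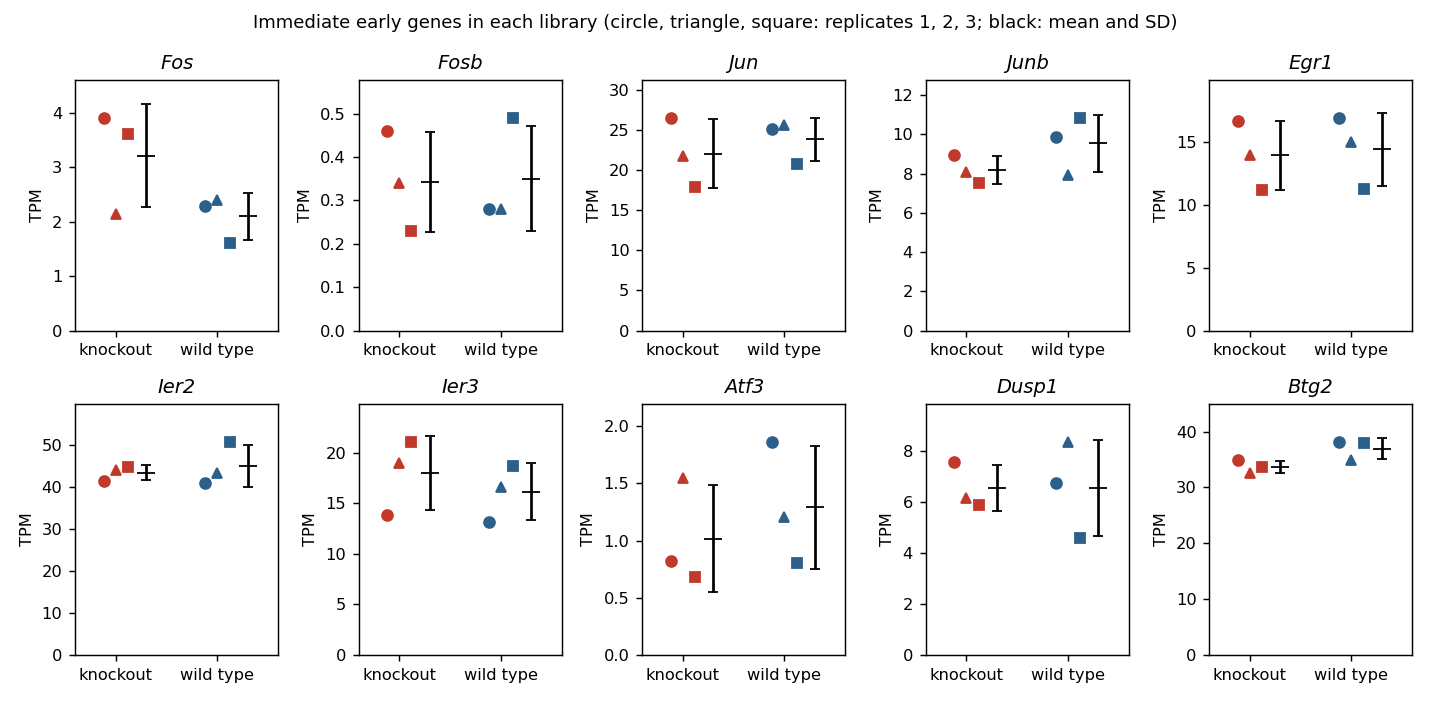
TPM of each of the 10 members (vertical axes start at 0 and differ between panels) in 3 knockout libraries (red) and 3 wild-type libraries (blue), with the group mean and SD in black. Knockout and wild-type points overlap in every panel but that of Btg2, where they are 0.02 TPM apart at the closest.

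**Figure D2:**
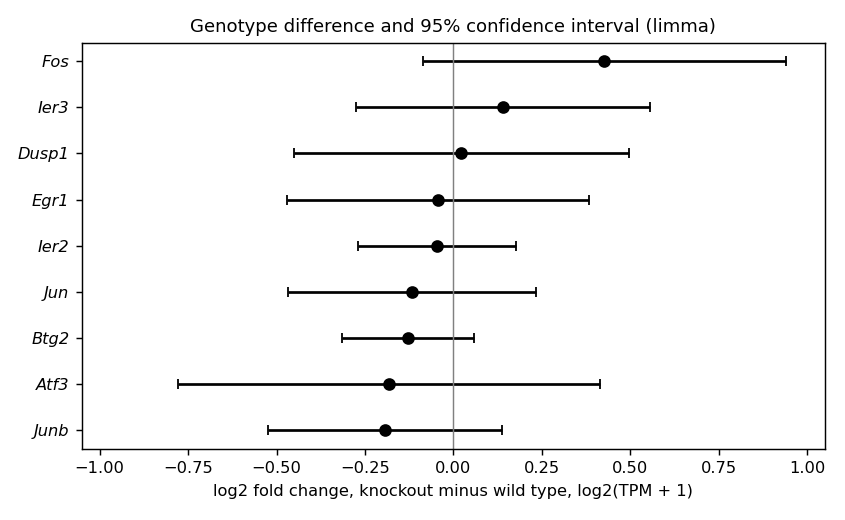
Log2 fold change of the 9 tested members with its 95% confidence interval from limma. Every interval includes 0, and the intervals run from -0.78 at the lowest (Atf3) to 0.94 at the highest (Fos).

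Every 95% confidence interval of the 9 tested members included 0 and lay within 2-fold in either direction on the log2(TPM + 1) scale, as did 91.5% of all tested intervals. For 7 of them, all but Fos and Atf3, it lay within 1.5-fold, as did 72.4% of all. These shares are near those of all features. A p that misses the threshold does not show that the genotypes were equal. These intervals are the sizes that the libraries leave possible on the log2(TPM + 1) scale, which shrinks low genes such as Fos and Atf3. With 0.1 in place of 1 added to the TPM, the log2 fold change was 0.57 for Fos and -0.32 for Atf3. The log2 fold change without wild-type replicate 3 was -0.21 for Jun, -0.20 for Egr1, -0.18 for Dusp1 and 0.25 for Ier3.

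In order of mean level per transcript length, Ier2 (44.2 ± 3.5 TPM, SD over 6 libraries) was followed by Btg2 (35.3 ± 2.2 TPM), Jun (22.9 ± 3.4 TPM), Ier3 (17.1 ± 3.1 TPM), Egr1 (14.1 ± 2.5 TPM), Junb (8.86 ± 1.27 TPM), Dusp1 (6.55 ± 1.32 TPM), Fos (2.66 ± 0.90 TPM), Atf3 (1.15 ± 0.47 TPM) and Fosb (0.35 ± 0.11 TPM). The neighbours Jun and Ier3, Ier3 and Egr1, and Junb and Dusp1 were closer than the sum of their SDs, and their order held in 5, 4 and 5 of 6 libraries. All other neighbours kept their order in 6 of 6 libraries. The transcripts of Fos, Fosb and Atf3, the members with the lowest means, were thus at the bottom of the order in every library.

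The spread between libraries of the same genotype was taken as the residual SD, the SD of log2(TPM + 1) around the 2 genotype means with 4 degrees of freedom. Its median over the 9 tested members was 0.27, against 0.16 over all tested features, and 7 of 9 members lay above that value. For 6 of the 9, all but Fos, Junb and Btg2, the absolute log2 fold change was smaller than the residual SD, near the 71.7% of all tested features for which this was so. Since low genes vary more, each member was also set beside the features whose mean log2(TPM + 1) lay within 0.5 of its own, and 6 of 9 members lay above the median of those features.

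Ier3 (residual SD 0.27), Egr1 (0.28) and Jun (0.22) spread more than 86.7%, 84.5% and 82.8% of features of like level, and Dusp1 (0.29) more than 72.3%. Fos (0.29) and Atf3 (0.33) had large spreads that were near the middle for their low level, above 56.4% and 57.8% of such features. Ier2 (0.12) and Junb (0.16) were also near the middle, above 45.4% and 41.1%. Btg2 (0.06) was among the steadiest transcripts, above 7.34% of features of its level. The ratio of the highest to the lowest library ran from 1.17 for Btg2 to 2.74 for Atf3.

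**Figure D3:**
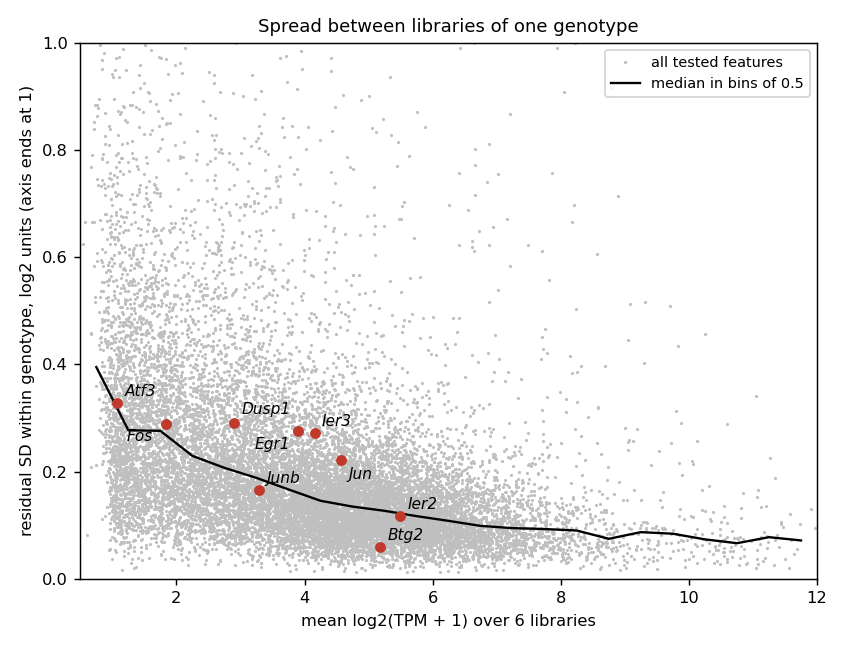
Residual SD within genotype against mean log2(TPM + 1) for all 17097 tested features (grey, the vertical axis ends at 1), their median in bins of 0.5 (black line) and the 9 tested members (red). Jun, Egr1, Ier3 and Dusp1 lie above the line and Btg2 well below it.

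The members did not move as a block from library to library. Jun, Egr1 and Dusp1 were each above their own mean in knockout replicate 1 and wild-type replicates 1 and 2, and below it in the other 3 libraries. Ier2 and Ier3 were below their own mean in knockout replicate 1 and wild-type replicates 1 and 2 and, except for Ier2 in knockout replicate 2, which lay at its mean, above it in the other 3. Fos was highest in knockout replicates 1 and 3 and lowest in wild-type replicate 3. Junb and Btg2, which had the smallest spreads with Ier2, were both above their mean in wild-type replicates 1 and 3.

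Over the 6 libraries, 19 of the 36 pairs of tested members had a positive and 17 a negative Pearson r, with a median of 0.05. The highest was that of Jun and Egr1 (r = 0.92, two-sided exact permutation p = 0.00833; Spearman rho = 0.83, exact permutation p = 0.0583). Without the 2 libraries farthest from the median of Jun, r was 0.86, and after removal of the genotype means r was 0.94 over the 6 libraries. The lowest was that of Egr1 and Ier3 (r = -0.91, exact permutation p = 0.0264; rho = -0.94, exact permutation p = 0.0167), at -0.997 without the 2 libraries farthest in Egr1 and -0.92 after removal of the genotype means. Adjusted over the 36 pairs, 0 passed (smallest adjusted exact permutation p = 0.15), and 6 had an unadjusted exact permutation p under 0.05. Each genotype holds 3 libraries, too few for a correlation within it, and all members of a library share its RNA and its TPM total.

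**Figure D4:**
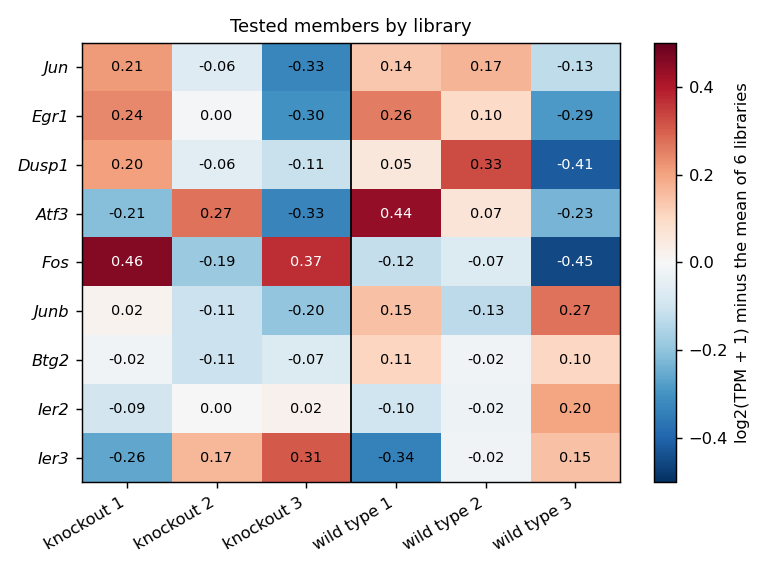
Log2(TPM + 1) of the 9 tested members in each library, minus the gene's mean over the 6 libraries. The top 3 rows (Jun, Egr1, Dusp1) are positive in knockout replicate 1 and wild-type replicates 1 and 2 and negative in the rest, and the bottom row (Ier3) is the reverse.

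The mean of the 9 centred members was close to flat, from -0.09 in wild-type replicate 3 to 0.06 in wild-type replicate 1. Egr1 (r = 0.98) and Jun (0.91) followed it most closely, and Ier2 (-0.88) and Ier3 (-0.87) ran against it. Each of these members is itself part of the mean, which raises its r by construction. Outside the set, the protein-coding genes most like this mean over the 6 libraries were Znrd1as (r = 0.999), Clrn1 (0.996), Map1s (0.995), Socs5 (0.993), Fgf10 (0.993), Ptpn12 (0.991), Fads6 (0.991) and Desi1 (0.991). Znrd1as is named as antisense to a neighbouring gene, and without stated strand its reads cannot be told apart from those of that gene. Clrn1 encodes clarin, an Usher syndrome protein of hair cells, and Fgf10 a growth factor of the developing inner ear. Each r rests on only 6 points. Of the 17097 tested features 655 had r above 0.9 and 415 had r below -0.9. This order of libraries, or its reverse, was thus shared by many transcripts.

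Heat shock genes encode chaperones and answer protein damage and warming. Their list median varied along nearly the same order of libraries as Egr1, while Ier2 and Ier3 ran nearly against that order. The median centred log2 value of 46 other early response genes, described below, was -0.001 in wild-type replicate 1. The median centred log2 value of 12 heat shock genes, whose order of libraries differed from that of Egr1 only in the lowest pair, was 0.18 in knockout replicate 1, -0.14 in knockout replicate 2, -0.19 in knockout replicate 3, 0.36 in wild-type replicate 1, 0.11 in wild-type replicate 2 and -0.24 in wild-type replicate 3. All 12 were highest in the first library of one or the other genotype, 4 in the knockout and 8 in the wild type. Of the 12, 10 were lowest in the third library of either genotype. The shares of all tested features with such extremes were not counted. The median residual SD of the heat shock genes was 0.28, and 10 of 12 lay above the median of all features.

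The widest of them, named after its values were seen, was Hsph1, a co-chaperone of Hsp70 proteins, at 100.4, 42.63 and 32.48 TPM in knockout libraries against 108.9, 74.4 and 33.64 TPM in wild-type libraries. Its residual SD of 0.84 exceeded that of 98.3% of tested features. Hspa8, the constitutive Hsp70 gene, also named after its values were seen, ranged from 878.5 to 1761.4 TPM with its extremes within wild type. Not every gene followed the list median. Hspa1a ranged from 3.24 to 5.13 TPM and stood at 5.04 TPM in knockout replicate 2. Bag3, named after its values were seen, stood at 22.46, 24.58 and 24.17 TPM in wild-type libraries. Between genotypes 1 heat shock gene was higher on average and 11 lower, 0 of 12 passed, and the median log2 fold change was -0.09. This direction rested on single libraries: 9 of 12 were higher without wild-type replicate 1 (median 0.04) and 7 of 12 without knockout replicate 3 (median 0.01), while the median was -0.24 without wild-type replicate 3 and -0.21 without knockout replicate 1. Those with the smallest p were Hspa1b (-0.19) and Hspa1a (0.15), near-identical copies between which reads can be shared, Dnaja1 (-0.12) and Hspd1 (-0.12). Without wild-type replicate 1, Dnaja1 and Hspd1 stood at 0.039 each, Hspa1b at -0.03 and Hspa1a at 0.27; without wild-type replicate 2, Hspa1a stood at 0.0018, and without wild-type replicate 3 the 4 genes stood at -0.34 (Hspa1b), 0.17 (Hspa1a), -0.31 (Dnaja1) and -0.29 (Hspd1).

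**Figure D5:**
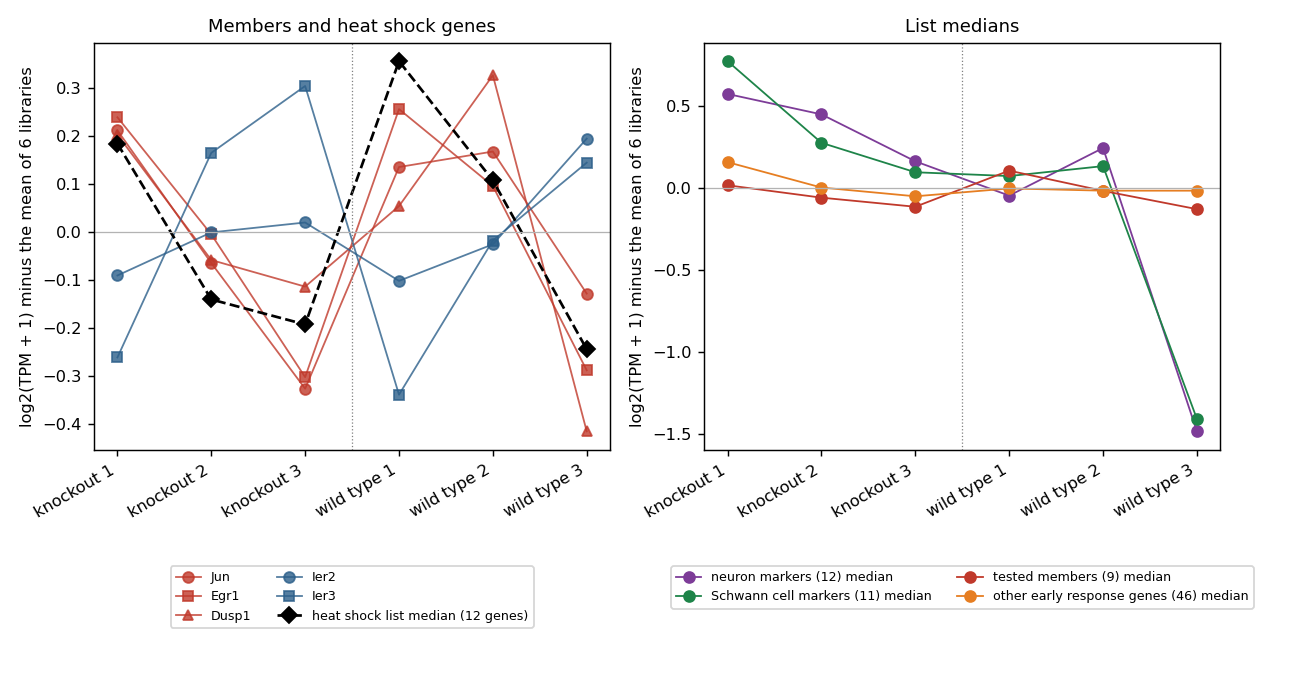
Log2(TPM + 1) minus the mean of 6 libraries, for single members and the heat shock list median (left) and for medians of 4 lists (right); lines only join the values of a gene or list, since replicates have no order. The heat shock list median is high with Jun and Egr1 in the first library of each genotype. The nerve lists drop in wild-type replicate 3 while the member median stays between -0.13 and 0.11.

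Library composition is given beside this order. The median centred log2 value of the longest tercile of protein-coding transcripts minus that of the shortest tercile was 0.07 in knockout replicate 1, 0.08 in wild-type replicate 1 and 0.01 in wild-type replicate 3, and lay between -0.09 and -0.01 in the other 3 libraries. The same difference between the most and the least GC-rich tercile was -0.18 in wild-type replicate 1 and between 0.01 and 0.06 in the other 5 libraries. Mitochondrially encoded transcripts took between 6.62% and 7.76% of the TPM total. The part of these measures in the spread of the members was not tested.

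The wider early response program was described with 50 further genes, of which 46 were tested. Of these 25 were higher and 21 lower in the knockout on average. Their median log2 fold change was 0.02 and their median residual SD of 0.16, equal to that of all features at 2 decimals. None passed (smallest limma adjusted p = 0.989), and 2 had an unadjusted p under 0.05. The groups did not overlap for 6 genes higher and 1 lower in the knockout, or 15.2% of 46, where 9.33% of all features did not overlap. Knockout replicate 1 was the highest library for 23 of the 46, and the share of all tested features highest there was not counted. Fosl1, Egr4, Npas4 and Dusp2 were too low to test, and Npas4, the neuronal factor induced by calcium entry, reached 0.23 TPM at most; these were named after their values were seen.

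Nfkbia, the inhibitor that NF-kB itself induces, had the smallest p of that list, at 40.35, 38.96 and 40.50 TPM in knockout libraries against 30.26, 32.10 and 34.99 TPM in wild-type libraries (log2 fold change 0.29, SE 0.08, limma unadjusted p = 0.00858, adjusted p = 0.989). Jund, the Jun family member that is expressed without stimulation, stood at 98.4 ± 5.1 TPM in knockout libraries against 84.5 ± 5.5 TPM in wild-type libraries (log2 fold change 0.22, SE 0.08, limma unadjusted p = 0.0234). Its mean was thus several times that of Jun, on the same length-scaled unit. Zfp36l2, which binds AU-rich elements and promotes mRNA decay, differed by 0.19 on the log2 scale and the leucine zipper gene Cebpb by 0.37. None of the 4 passed.

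Of the 4 other early response genes with the widest spread, 3 were lowest in wild-type replicate 3. Egr2, which is also the master regulator of Schwann cell myelination and is counted among the Schwann cell markers, stood at 18.85, 15.50 and 12.75 TPM in knockout libraries against 11.45, 14.23 and 3.05 TPM in wild-type libraries. Without wild-type replicate 3, where Schwann cell and neuron markers were low, its log2 fold change went from 0.85 (SE 0.51) to 0.26. Egr3 ranged from 2.5 to 11.12 TPM and Dusp4, another MAP kinase phosphatase, from 3.98 to 13.07 TPM, both with their lowest value in that library and their highest in knockout replicate 1. Over the 12 neuron markers the median centred value was -1.48 there and between -0.05 and 0.57 in the other libraries. The part of nerve content in the values of these genes was not tested. The log2 fold change of Dusp4 was 0.48 with all libraries, 0.19 without wild-type replicate 3 and 0.26 without knockout replicate 1. Ccn2, a matrix protein gene that YAP and SRF induce, stood instead between 34.21 and 70.68 TPM with both extremes in the knockout. Its log2 fold change was -0.28 (SE 0.32), and -0.47 without wild-type replicate 3. With single knockout libraries left out it ran from -0.61 without replicate 1 to -0.10 without replicate 3. The log2 fold change of Egr3, 0.32 with all libraries, was -0.03 when wild-type replicate 3 was left out and -0.07 when knockout replicate 1 was.

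Kinases and factors upstream of the members had a median residual SD of 0.14 over 19 tested genes, against 0.16 over all tested features. They were not set beside features of like level. Of these 11 were higher and 8 lower in the knockout, 0 passed, and the median log2 fold change was 0.03. Atf1, a CREB family factor, stood at 21.62, 21.48 and 21.66 TPM in knockout libraries against 28.79, 24.26 and 27.27 TPM in wild-type libraries, without overlap (log2 fold change -0.29, SE 0.09, limma unadjusted p = 0.0134, adjusted p = 0.989). Creb1 itself had a log2 fold change of -0.22, Srf one of 0.14 and Mapk3, which encodes ERK1, one of 0.10, all with overlapping groups. Without knockout replicate 1 Creb1 stood at -0.38 and Srf at 0.04, and without wild-type replicate 1 Creb1 stood at -0.12 and Mapk3 at 0.04.

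Genes that answer glucocorticoids and low oxygen, other conditions of the time before tissue is preserved, did not pass either. Of 8 glucocorticoid response genes 4 were higher and 4 lower (median log2 fold change -0.01). The metal-binding protein genes Mt1 (log2 fold change 0.46, SE 0.18, limma unadjusted p = 0.0333, adjusted p = 0.989) and Mt2 (0.53) were higher on average in the knockout, and Sgk1 (-0.11) and Per1 (-0.15) lower. Without wild-type replicate 3 Mt1 stood at 0.32 and Mt2 at 0.38, and Per1 stood at -0.08 without wild-type replicate 1. Of 11 tested hypoxia response genes 5 stood higher and 6 lower (median -0.01). Those with the smallest p were Ndrg1 (0.58), which Schwann cells also express, Ankrd37 (-0.53), Egln3 (0.17) and Ero1l (-0.14). Single libraries moved them: Ndrg1 stood at 0.23 without wild-type replicate 3, Egln3 at 0.08 without wild-type replicate 2 and Ero1l at 0.031 without wild-type replicate 1. Ankrd37 stood at -0.18 without wild-type replicate 1 and at -0.90 without wild-type replicate 3, where Ero1l stood at -0.26.

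Markers of the cell types a cochlear dissection can hold were set beside the members, and 0 of them passed (smallest limma adjusted p = 0.989). All 12 neuron and 10 of 11 Schwann cell markers were higher on average in the knockout, with sums of 681.8 to 918.6 TPM and 1514.4 to 2338.6 TPM there and of 212.8 to 723.3 TPM and 527.5 to 1499.3 TPM in the wild type; their part in the values of the members was not tested. Without wild-type replicate 3 the same numbers of markers were higher, with medians of 0.30 for neurons and 0.28 for Schwann cells. Markers of the sensory epithelium lay the other way: all 10 supporting cell and tectorial membrane markers and 9 of 12 hair cell markers were lower on average in the knockout. The groups did not overlap for 4 of the 10 and 3 of the 12, all lower in the knockout. They also did not overlap for 4 of the 12 neuron and 3 of the 11 Schwann cell markers, all higher in the knockout. Of all tested features, 9.33% did not overlap in one direction or the other, and 4.74% were lower without overlap. An unadjusted limma p under 0.05 was found for 3 of the 10 supporting cell and tectorial membrane markers and for 0 of the hair cell, neuron and Schwann cell markers. Supporting cell markers summed to 7661.8 to 7963.4 TPM in the knockout and 8352.1 to 9898.4 TPM in the wild type, and hair cell markers to 634.0 to 689.2 TPM and 672.9 to 752.6 TPM; their part was not tested either. Without wild-type replicate 3, 9 of 10 and 8 of 12 were lower, with medians of -0.10 and -0.06. With all libraries the median log2 fold change was -0.11 for hair cells, -0.17 for supporting cells and the tectorial membrane, 0.82 for neurons, 0.75 for Schwann cells, 0.05 for macrophages, 0.02 for endothelium, -0.47 for red blood cells, 0.22 for osteoblasts and -0.19 for skeletal muscle. The 10 members together summed to between 146.4 and 155.0 TPM in knockout libraries against between 155.2 and 157.6 TPM in wild-type libraries. Ier2 and Btg2 contribute the most to these sums. The ranges nearly touched, with knockout replicate 1 at 155.0 TPM and wild-type replicate 1 at 155.2 TPM. Without wild-type replicate 3 the median log2 fold change of the members was -0.11, and without knockout replicate 3 it was 0.015.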

How the data were processed

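Whole-cochlea total RNA of 6 libraries, 3 Plscr5-/- and 3 wild type at postnatal day 3, was split by the genotype label. The deposited values are TPM with 2 decimals, scaled by the authors to 1000000 per library; the unit was read from the values. DESeq2 and the build mm8 stand in the submitters' processing notes without a role; which aligner and quantifier were run is not given in the sources used here. Symbols and transcript structures came from GENCODE M21 (GRCm38). The 17097 features reaching 1 TPM in 3 or more libraries were transformed to log2(TPM + 1) and fitted for genotype with limma 3.58.1 in R 4.3.3 (intensity trend, robust moderation, no replicate block), a fit checked on simulated data. The genes named were the 10 members, Plscr5, the 4 genes of each of 5 response lists with the smallest p, the 4 other early response genes with the largest spread, and the 8 protein-coding genes most correlated with the member mean. The members and lists were chosen with earlier results of these data known. Exact permutation tests used Python 3.11.15. Alternatives changed the pseudocount, filter, scaling, removed features, variance model and block, and left out each library in turn.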

Additional observations from a re-analysis of the deposited data

How the results depend on the processing

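None of the members tested passed under any of 15 alternatives (smallest limma adjusted p 0.720, with the replicate block). Fos was tested in 14 of these, not with a 5 TPM minimum, and Atf3 in 11, since it fell under the minimum there and without knockout replicate 2 or wild-type replicate 1 or 2; the other 7 were tested in all 15. Of 130 checks on single members 123 kept their sign, and of 371 on other named genes 366 did. These counts include settings in which the sign could not change. No filter, the 5 TPM minimum, no variance trend and the replicate block leave each log2 fold change as it was. Dusp1 stood at -0.0021 with quantile normalization. With single libraries left out Dusp1 ranged from -0.18 to 0.19, Jun from -0.25 to 0.015, Egr1 from -0.20 to 0.096, Ier2 from -0.11 to 0.040, Egr3 from -0.069 to 0.66, Dnaja1 from -0.31 to 0.039, Hspd1 from -0.29 to 0.039, Ero1l from -0.26 to 0.031, and the member median from -0.12 to 0.015. The median residual SD of the members ranged from 0.21 to 0.25 over those settings and was 0.14 with a pseudocount of 5 (0.12 over all features). Over all features 0 passed as higher and 2 as lower; with a pseudocount of 5 it was 1 and 1, with median-of-ratios scaling or without haemoglobin and mitochondrial genes 1 passed as lower, and with no filter, no variance trend or the replicate block 0 did. Leaving out single libraries gave 0 to 2 higher and 0 to 2 lower. Deviations of same-numbered libraries correlated at 0.19, -0.05 and 0.24. For knockout replicates 1 and 3 the same-numbered wild-type library gave the highest r. Knockout replicate 2 correlated best with wild-type replicate 3, at 0.08. The labels do not say whether the replicate numbers mark pairs or shared batches, and these values do not settle it. Depth is unknown, which limits what can be said of Fosb and Atf3.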
